A study of Mus musculus with 22 samples.

Results

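Hox genes were described in 2 white fat depots of mice that carried transplanted bone marrow. The members were the genes whose symbol in the array's platform annotation reads Hox, a cluster letter a to d, and a number. The rule used no measured value and found 33 genes among 19337 genes with a symbol, on 21793 array features in all. HoxA had 8 of them, HoxB 9, HoxC 9 and HoxD 7. By paralogue number, 6 were anterior (1 to 3), 12 central (4 to 8) and 15 posterior (9 to 13). The gene table of the mouse reference holds 39 Hox genes, and the 6 without a row were not analysed here.

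The study profiled 22 fat samples, each on 1 Affymetrix array, to ask what the GIP receptor of marrow-derived cells does in obese adipose tissue. All mice were male C57BL/6J and had received a marrow transplant. The donor marrow was left to rebuild the blood for 6 weeks, and a diet with 60% of its calories from fat followed for 14 weeks. Samples came from epididymal fat (epiWAT), a visceral depot beside the testis, or from inguinal subcutaneous fat (ingWAT), under the skin of the groin.

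Wild-type (WT) mice with WT marrow gave 4 epiWAT and 4 ingWAT arrays. WT mice with Gipr-/- marrow, which lacks the receptor of the incretin GIP, gave 4 and 3 arrays. Mice with marrow that lacks both Gipr and S100a9, a subunit of the alarmin calprotectin, gave 4 and 3 arrays and are called double-knockout here. The sources used here do not state the recipient of the double-knockout marrow or the age of the mice. The deletions lie in transplanted cells, while the stromal cells and adipocytes of the fat are host cells. No label says whether 1 mouse gave 1 array, and the p-values therefore cover only the spread between the samples, which may be technical. In bulk tissue, fewer cells of a type and less RNA per cell cannot be told apart.

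Hox genes encode homeodomain transcription factors that give cells a position along the head-to-tail axis of the embryo and along the limb and the urogenital tract. Within a cluster the genes lie in the order in which they act, from anterior to posterior, and genes at the same place in different clusters are paralogues. They bind DNA together with TALE homeodomain cofactors of the Pbx and Meis families, are held silent by Polycomb complexes and respond to retinoic acid. Adult fibroblasts and fat progenitors keep a Hox pattern that records where in the body they arose.

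The start regions of 17 of the 33 genes were held by the RefSeq promoter table (GRCm38.p6), in 19 windows. The 250 bases before the start are shown for Hoxc4, which differed between the depots, and for Hoxb8, Hoxd10 and Hoxd11, which were high together on some of the epiWAT arrays described further on. Capitals mark matches to TGATNNAT, a composite site for Hox proteins with Pbx, read on both strands. All 4 lie on the forward strand, Hoxc4 at chr15:103034145-103034394, Hoxb8 at chr11:96281655-96281904, Hoxd10 at chr2:74691641-74691890 and Hoxd11 at chr2:74682073-74682322, the inner of its 2 windows.
Hoxc4: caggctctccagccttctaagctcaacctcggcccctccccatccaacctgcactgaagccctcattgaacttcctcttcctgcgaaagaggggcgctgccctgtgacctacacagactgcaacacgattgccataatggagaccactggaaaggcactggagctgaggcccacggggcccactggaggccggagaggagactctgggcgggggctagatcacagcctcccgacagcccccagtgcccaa
Hoxb8: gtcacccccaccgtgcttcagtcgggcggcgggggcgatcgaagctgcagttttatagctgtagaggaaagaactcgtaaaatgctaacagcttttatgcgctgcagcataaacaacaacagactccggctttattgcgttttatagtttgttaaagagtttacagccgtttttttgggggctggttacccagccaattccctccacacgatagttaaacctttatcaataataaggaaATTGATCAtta
Hoxd10: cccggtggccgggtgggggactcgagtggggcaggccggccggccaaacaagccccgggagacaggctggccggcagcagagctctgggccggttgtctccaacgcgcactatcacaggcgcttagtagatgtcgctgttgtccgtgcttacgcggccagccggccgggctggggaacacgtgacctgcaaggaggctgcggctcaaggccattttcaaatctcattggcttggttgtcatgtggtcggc
Hoxd11: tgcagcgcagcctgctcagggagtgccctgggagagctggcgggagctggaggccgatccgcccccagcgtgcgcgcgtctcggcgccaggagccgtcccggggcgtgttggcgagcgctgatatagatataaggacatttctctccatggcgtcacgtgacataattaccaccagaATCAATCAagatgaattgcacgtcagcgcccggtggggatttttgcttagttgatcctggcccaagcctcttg

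The composite site was found in 4 of the 19 Hox windows (Hoxa2, Hoxb1, Hoxb8 and the inner Hoxd11 window), or 21.1%, and in 7.68% of all 32851 windows of that length. TGACAG, the site of Meis proteins, was found in 2 Hox windows (Hoxa2 and Hoxa3), or 10.5%, against 15.9% of all windows. TTTATGG, a site bound by posterior Hox proteins and Cdx proteins, was in 0 of the 19 and in 2.43% of all. The Hox windows held a median of 13 CpG dinucleotides against 6 over all windows. A match describes the letters of a window and shows no binding. None of the printed windows held TGACAG or TTTATGG, which says only that these letters are not there.

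Values were read as log2 expression from the deposited table. Their median per array lay between 6.11 and 6.54, and arrays of the same group correlated at 0.911 to 0.984 over all genes. Adipocyte markers (6 of 6 on the array, Adipoq among them) had mean values between 16.06 and 17.99 on the epiWAT and between 17.43 and 17.90 on the ingWAT arrays, as the labels have it. Genes of neighbouring tissues differed widely between arrays. Means of the 8 skeletal muscle markers ran from 5.85 to 17.04 in ingWAT against 5.03 to 5.97 in epiWAT. Means of the 9 skin and hair follicle markers reached 11.59 in ingWAT and 4.62 in epiWAT, and means of the 6 measured lymphocyte and lymph node markers passed 10 on 2 ingWAT arrays (double-knockout 1 and 3). In epiWAT, means of the 7 measured epididymis markers ran from 4.32 to 11.11 against 3.86 to 5.45 in ingWAT, and those of the 8 mesothelium markers from 5.88 to 8.65 against 4.09 to 4.71. The sample numbers in the titles run from 49 to 60 in epiWAT and from 64 to 92 in ingWAT, so whatever those numbers follow cannot be told apart from the depot.

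Between the depots, Hoxc10 and Hoxc9, 2 posterior genes of HoxC, were higher in ingWAT, and the central genes Hoxc4 and Hoxb6 were lower. These 4 were 20% of the 20 Hox genes that had passed a filter on low values, beside a background of 12.9% of the 14502 genes tested (5.40% higher and 7.55% lower in ingWAT). The remaining 13 of the 33 were below the filter, which left out the 25% of genes with the lowest mean over the 22 arrays. The test was limma on the depot difference within each kind of marrow, averaged over the 3 kinds, with Benjamini-Hochberg adjusted p under 0.05. The median difference (ingWAT minus epiWAT) was -0.12 over the 20 Hox genes and -0.02 over all genes tested, with 9 of the 20 above 0. The filter took the mean over both depots, and 2 of the 20 passed it (4.40) through 1 depot alone: Hoxb8, whose ingWAT mean was 3.73, and Hoxd12, whose epiWAT mean was 4.28.

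Hoxc10, a posterior gene known as a marker of subcutaneous fat and as a repressor of thermogenic genes there, had the largest difference of the 20. In ingWAT the 4 WT arrays read 8.08, 7.38, 9.71 and 6.65, the 3 Gipr-/- arrays 5.36, 6.96 and 6.79, and the 3 double-knockout arrays 6.76, 7.54 and 7.21. In epiWAT the WT arrays read 4.90, 5.05, 4.12 and 5.15, the Gipr-/- arrays 4.46, 3.93, 6.50 and 5.84, and the double-knockout arrays 4.66, 3.77, 4.16 and 3.74. Of the 10 ingWAT arrays, 9 lay above all 12 epiWAT arrays, and the exception was Gipr-/- 1, which 2 epiWAT arrays, Gipr-/- 3 and 4, exceeded. The difference was 2.47 (SE 0.35, limma adjusted p = 0.000297).

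Hoxc10 was also highest on the ingWAT array with the most muscle RNA, WT 3, where the muscle marker mean was 17.04. The 6 ingWAT arrays with a muscle mean above 10 (WT 1, 2 and 3, Gipr-/- 3, double-knockout 1 and 2) read between 6.76 and 9.71, and the other 4 between 5.36 and 7.21. Without those 6 arrays the difference was 1.98 (limma adjusted p = 0.0472), and it was then the 1 Hox gene called. With the means of the gland epithelium and muscle markers as covariates it was 1.32 and was not called (limma adjusted p = 0.299). The muscle means barely overlapped between depots (5.03 to 5.97 in epiWAT, 5.85 to 17.04 in ingWAT), so that fit can hardly separate depot from muscle marker.

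Hoxc9, the next gene of the cluster, had a smaller difference of 0.64 (SE 0.15, limma adjusted p = 0.00865). Its ingWAT arrays ran from 5.37 over a median of 5.91 to 6.39 and its epiWAT arrays from 4.65 over 5.28 to 5.75, and 6 ingWAT arrays lay above all of epiWAT. All 10 ingWAT arrays were above the epiWAT median. Arrays called rich in epithelial RNA, or epithelium-rich, are the 5 epiWAT arrays with a gland epithelium marker mean above 7. The name stands for that mean alone, and not all of its markers part these arrays from the rest. By limma, the call was lost without the muscle-rich arrays (0.64, adjusted p = 0.132), without 5 epiWAT arrays rich in epithelial RNA (0.56, adjusted p = 0.0738), without the 3 ingWAT arrays numbered above 80 (0.57, adjusted p = 0.0654) and with the marker covariates (0.69, adjusted p = 0.255).

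Hoxc4, at the anterior end of HoxC, went the other way. Its epiWAT arrays ran from 4.49 over a median of 5.59 to 6.31 and its ingWAT arrays from 4.005 over 4.70 to 4.97. Of the 12 epiWAT arrays, 11 lay above every ingWAT array, and Gipr-/- 1 was the exception. The difference was -0.93 (SE 0.15, limma adjusted p = 0.00101). It was -0.75 without the 6 muscle-rich arrays (limma adjusted p = 0.123) and -0.99 without the 5 epithelium-rich arrays (limma adjusted p = 0.00313).

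The other HoxC genes tested were not called. Hoxc8, a repressor of the brown fat programme, was measured at 10.29 to 14.09 in epiWAT and 11.61 to 13.12 in ingWAT, with a difference of -0.09 (SE 0.30). Hoxc6 was at 10.08 to 12.43 in epiWAT and 9.99 to 12.13 in ingWAT, with a difference of -0.16 (SE 0.22). Hoxc5 was at 0.40 (SE 0.28). The signs of Hoxc5, Hoxc6 and Hoxc8 each turned under at least 1 alternative setting, so no direction is given for them.

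**Figure D1:**
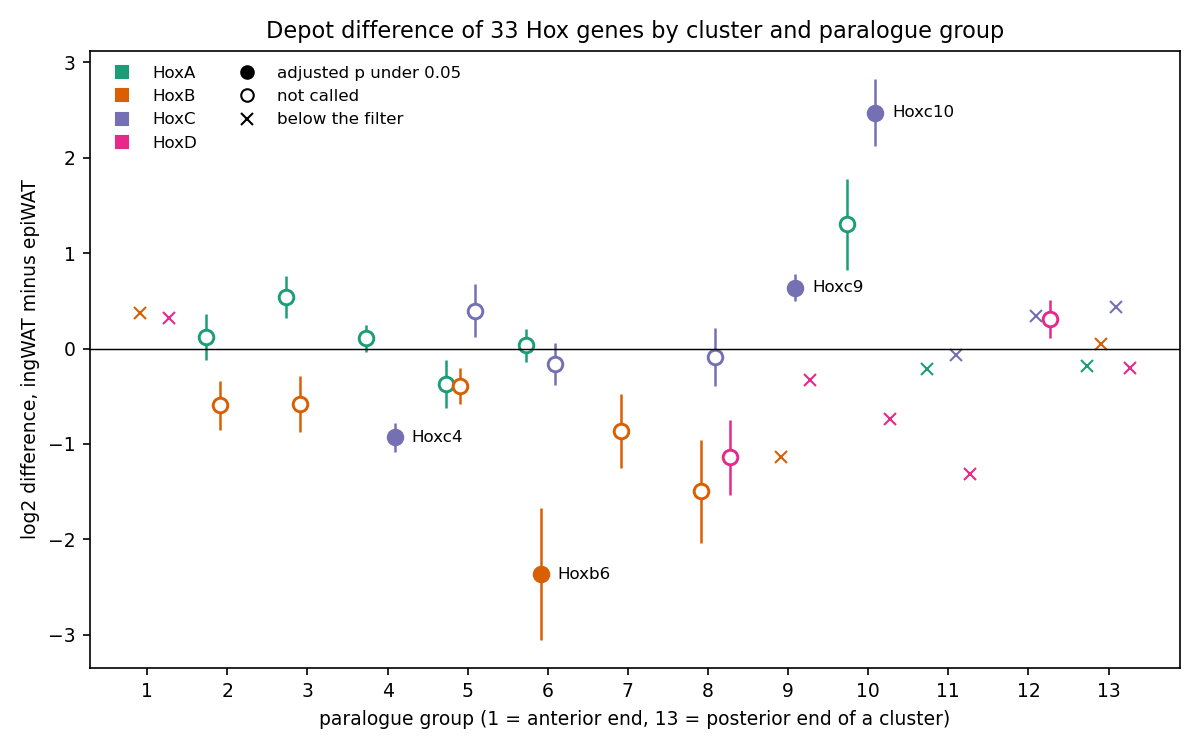
Depot difference of each Hox gene (log2, ingWAT minus epiWAT, mean over marrow; bars are SE) against its paralogue group, coloured by cluster, with 12 epiWAT and 10 ingWAT arrays. Filled points passed limma at an adjusted p under 0.05, open points did not, and crosses are genes below the filter, shown without bars. Hoxc10 (2.47) and Hoxc9 (0.64) lie above 0, and Hoxc4 (-0.93) and Hoxb6 (-2.36) below.

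Hoxb6, a gene of trunk patterning, had the largest negative difference, with high values on some of the epiWAT arrays. In epiWAT the WT arrays read 5.18, 10.14, 7.05 and 4.98, the Gipr-/- arrays 8.24, 7.86, 4.80 and 5.94, and the double-knockout arrays 10.98, 5.40, 9.08 and 5.48. In ingWAT the WT arrays read 4.77, 5.71, 4.63 and 5.26, the Gipr-/- arrays 4.07, 4.78 and 4.25, and the double-knockout arrays 4.64, 5.28 and 4.30. Of the 12 epiWAT arrays 7 lay above all of ingWAT, and 5 fell within its range. The difference was -2.36 (SE 0.69, limma adjusted p = 0.0308). The call held in 23 of 34 alternative settings and was lost without any one of 6 arrays (adjusted p up to 0.0593): ingWAT Gipr-/- 1 and 3, ingWAT double-knockout 1 and 3, epiWAT Gipr-/- 2 and epiWAT double-knockout 3. It was also lost without the 3 ingWAT arrays numbered above 80 (-2.42, limma adjusted p = 0.113).

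Of the 6 HoxB genes tested, 1 was called, beside the background of 12.9%. Hoxb2, Hoxb3, Hoxb5 and Hoxb7 were at -0.59, -0.58, -0.39 and -0.86. Hoxb8, which acts in trunk patterning and in blood progenitors, was at -1.50 (SE 0.54, limma adjusted p = 0.0720), and since it passed the filter only through epiWAT, its sign supports nothing about the cluster. All 6 changed sign when the gland epithelium and muscle marker means were covariates (0.08 to 0.58). As the muscle means barely overlapped between depots, that fit can hardly separate depot from covariates, and no direction is read from it. Hoxb9 was below the filter and was called only where no filter was used (-1.14, SE 0.34, limma adjusted p = 0.0392).

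HoxA and HoxD had no called gene. Differences of the 6 HoxA genes tested ran from -0.37 to 1.30, with 5 of 6 above 0 and a median of 0.11. Hoxa10, a posterior gene known from the patterning of the reproductive ducts and the limb, was at 1.30 (SE 0.48, limma adjusted p = 0.0771). On the HoxD side, Hoxd8 was at -1.14 (SE 0.40, limma adjusted p = 0.0623) and Hoxd12 at 0.31 (SE 0.20, limma adjusted p = 0.305).

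By position, 2 of the 4 posterior genes tested (Hoxa10, Hoxc9, Hoxc10 and Hoxd12) were called higher in ingWAT. Of the 12 central genes, 2 were called lower. Of the 4 anterior genes tested, 0 were called by limma. Over all genes tested the shares were 5.40% higher and 7.55% lower. The signs of the genes that passed are not counted, since Hoxd12 and Hoxb8 passed only through the depot where they were higher. The posterior count also leaves out 11 members below the filter, and in a fit with no filter 8 of those 11 had a negative difference.

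At a depot difference taken within each kind of marrow, Hoxc10 was the leading Hox gene with WT and with double-knockout marrow. With WT marrow 1 of 20 Hox genes was called, Hoxc10 at 3.15 (SE 0.58, limma adjusted p = 0.0101), beside a background of 1.97% (1.03% higher and 0.945% lower). With double-knockout marrow 2 were called beside 3.92% (1.71% higher and 2.21% lower), Hoxc10 at 3.09 (SE 0.63, limma adjusted p = 0.0122) and Hoxc4 at -1.17 (SE 0.27, limma adjusted p = 0.0228). With Gipr-/- marrow limma called 0 beside 0.614%, and 2 of 20 had an unadjusted p under 0.05, beside 2190 of the 14502 genes tested. The smallest p-values there belonged to Hoxd12 (0.87, limma adjusted p = 0.252) and Hoxc4 (-0.66, limma adjusted p = 0.260), and Hoxc10 was at 1.19 (limma adjusted p = 0.372). Hoxd12 passed the filter only through ingWAT, where it was higher, so its difference is a description. These 3 comparisons used all 22 arrays for the spread.

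Whether the depot difference depended on the marrow was tested with interaction contrasts, and limma called 0 Hox genes in each. The background was 0% for Gipr-/- against WT marrow, 0.717% for double-knockout against Gipr-/- and 0% for double-knockout against WT. For Gipr-/- against WT the smallest p-values belonged to Hoxa10 (-3.27, SE 1.16, limma adjusted p = 0.530) and Hoxc10 (-1.96, SE 0.86, limma adjusted p = 0.579), 2 Hox genes with an unadjusted p under 0.05. For double-knockout against Gipr-/- they were Hoxb5 (-1.17, limma adjusted p = 0.271) and Hoxc10 (1.90, limma adjusted p = 0.350), again 2 genes. For double-knockout against WT they were Hoxa3 (-0.81, limma adjusted p = 0.738) and Hoxa4 (0.46, limma adjusted p = 0.803), with 0 Hox genes at an unadjusted p under 0.05. Over all 14502 genes tested, 1153, 2000 and 1238 had an unadjusted p under 0.05 in these contrasts, in the same order.

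**Figure D2:**
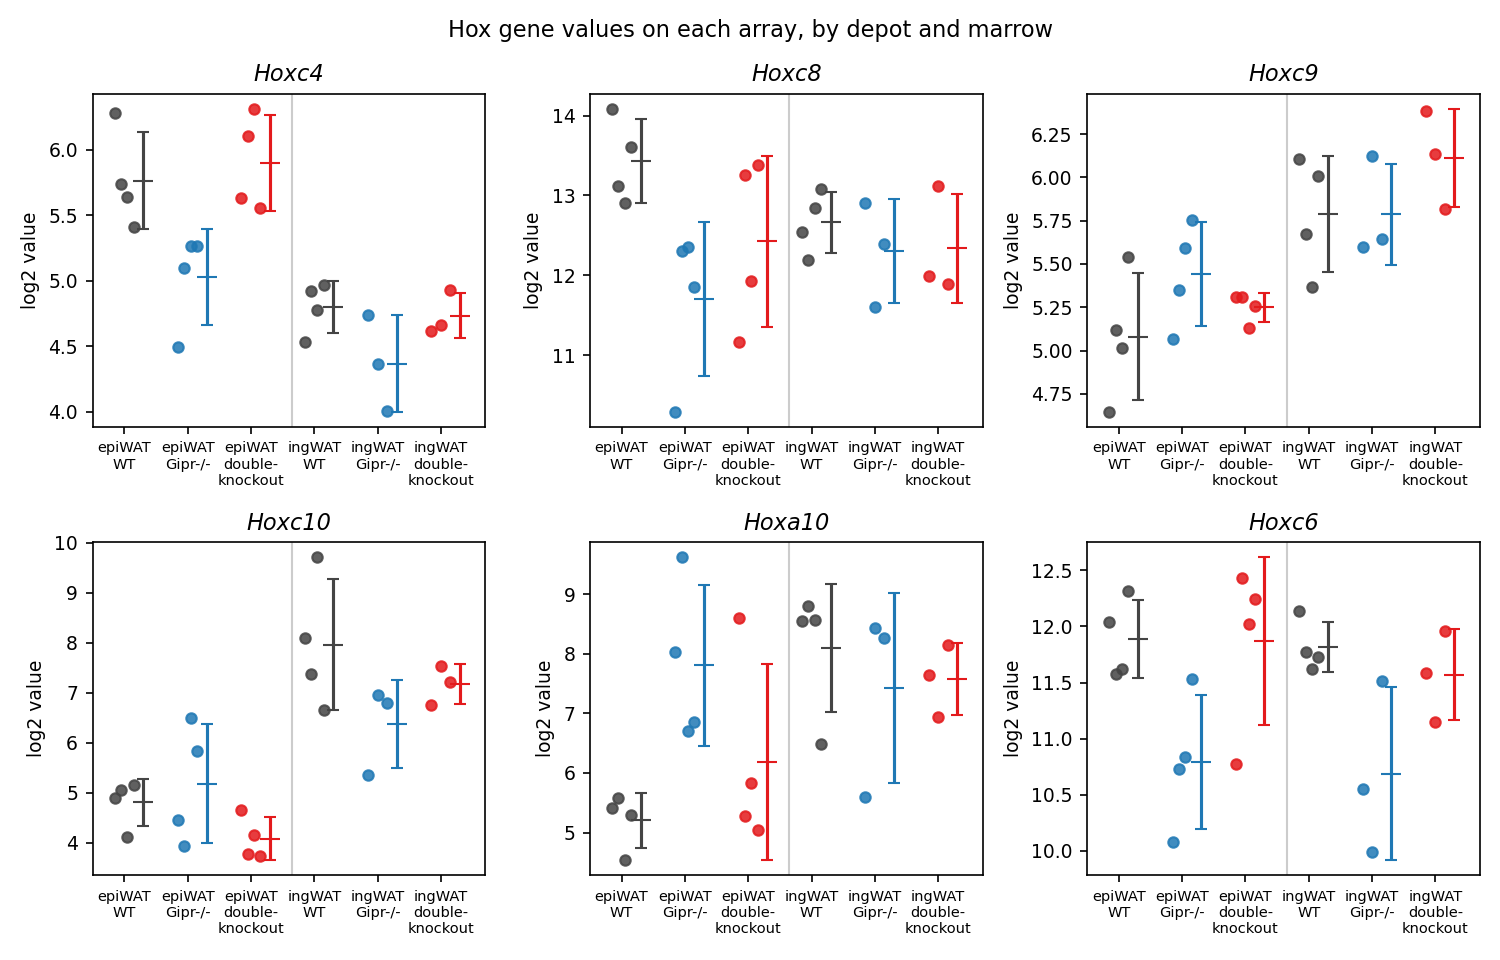
Log2 value of 6 Hox genes on each array (points), by depot and marrow, with the mean and SD of each group (bars; n = 4, or 3 for ingWAT with Gipr-/- and double-knockout marrow); each vertical axis has its own range. Hoxc10 lies between 5.36 and 9.71 in ingWAT and between 3.74 and 6.50 in epiWAT, and Hoxc6 reaches 10.08 at its lowest in epiWAT and 9.99 in ingWAT, both with Gipr-/- marrow.

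Between kinds of marrow, limma called 0 Hox genes within either depot. In epiWAT 22 of the 33 passed the filter, and in ingWAT 19. Of the 22, Hoxd10, Hoxd11 and Hoxd9 passed the epiWAT filter (4.33) with a WT mean below it. The background of called genes in epiWAT was 0% for all 3 comparisons. For Gipr-/- against WT marrow, 6 of the 22 Hox genes had an unadjusted p under 0.05, beside 1052 of all 14502 genes tested. The smallest p belonged to the posterior gene Hoxa10 (2.60, SE 0.79, limma adjusted p = 0.554). Hoxd10 had the next (2.43, limma adjusted p = 0.554), but it passed the filter only through the Gipr-/- arrays, with means of 3.55 for WT, 5.98 for Gipr-/- and 4.19 for double-knockout marrow, so its difference is a description. For double-knockout against Gipr-/- marrow 6 did so as well, beside 1555 of all genes. They were led by Hoxc4 (0.87, SE 0.28, limma adjusted p = 0.305) and Hoxb5 (1.01, limma adjusted p = 0.306), and these comparisons share the Gipr-/- arrays. Hoxd10 was among the 6 in both comparisons, so nothing is read from either count. For double-knockout against WT marrow 0 did, beside 444 of all genes. The smallest p-values belonged to Hoxc8 (-1.001, limma adjusted p = 0.999) and Hoxd9 (0.75, limma adjusted p = 0.999). Hoxd9 passed the filter only through the double-knockout arrays, where it was highest, so its difference is a description.

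The values of the 2 groups did not overlap for 5 of the 22 Hox genes in epiWAT with Gipr-/- against WT marrow, beside 5.04% of all genes. They were Hoxa10, Hoxc4, Hoxc6, Hoxc8 and Hoxd10, and as Hoxd10 passed the filter only through the group where it was high, nothing is read from the count of 5. For Hoxc8 the WT arrays read 14.09, 13.12, 12.91 and 13.60 and the Gipr-/- arrays 10.29, 12.31, 12.36 and 11.85, so every Gipr-/- array was lower (-1.73, SE 0.56, limma adjusted p = 0.579). For Hoxc6 the WT arrays read 12.04, 11.58, 11.62 and 12.31 and the Gipr-/- arrays 10.08, 10.73, 10.83 and 11.53 (-1.10, SE 0.39, limma adjusted p = 0.609). Both genes were lowest on Gipr-/- 1, where the mean of 8 testis germ cell markers was 13.79 (epiWAT median 6.00). The part of germ cell RNA in these values was not tested. With double-knockout against Gipr-/- marrow 1 gene, Hoxc4, did not overlap beside 6.05%, and with double-knockout against WT 0 beside 2.32%.

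In ingWAT the background was 0.234% of genes called for Gipr-/- against WT marrow, 3.48% for double-knockout against Gipr-/- and 0% for double-knockout against WT. For Gipr-/- against WT marrow, 4 of 19 Hox genes had an unadjusted p under 0.05, beside 2180 of all 14502 genes tested. The smallest belonged to Hoxa3, a gene of pharyngeal patterning (-1.18, limma adjusted p = 0.145), and Hoxc6 (-1.13, SE 0.34, limma adjusted p = 0.145). For Hoxc6 the WT arrays read 12.13, 11.77, 11.62 and 11.73, the Gipr-/- arrays 10.55, 9.99 and 11.52, and the double-knockout arrays 11.59, 11.15 and 11.96. All 3 Gipr-/- arrays lay below all 4 WT arrays, but Gipr-/- 3, at 11.52, lay close to the lowest WT array, at 11.62. The 2 lower arrays, Gipr-/- 1 and 2, have sample numbers above 80, as does WT 4 alone among the WT arrays. Sample number and marrow can therefore only partly be told apart in ingWAT. For double-knockout against Gipr-/- marrow 1 had an unadjusted p under 0.05, beside 2745 of all genes. The smallest belonged to Hoxc6 (0.88, limma adjusted p = 0.205) and Hoxa6 (0.58, limma adjusted p = 0.351). For double-knockout against WT marrow 0 did, beside 1958 of all genes, and Hoxa3 (-0.70, limma adjusted p = 0.424) and Hoxb2 (0.44) had the smallest p.

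The ingWAT groups did not overlap for 3 of 19 Hox genes with Gipr-/- against WT marrow (Hoxa3, Hoxb2 and Hoxc6), beside 15.4% of all genes, for 1 (Hoxa6) with double-knockout against Gipr-/-, beside 22.3%, and for 1 (Hoxb2) with double-knockout against WT, beside 11.0%. The first count is near its background and the other 2 below theirs. Muscle marker means also differed between these groups, with medians of 14.86, 8.79 and 11.34 for WT, Gipr-/- and double-knockout marrow. Their part in the Hox values was not tested for the comparison of Gipr-/- with WT marrow beyond leaving out the 6 muscle-rich arrays, which left 1 WT array and where limma again called 0 Hox genes.

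Hox genes varied more between epiWAT arrays than between ingWAT arrays. The SD was larger in epiWAT for 22 of the 33 genes and more than 2 times as large for 11. The ratio of the SDs (epiWAT over ingWAT) had a median of 1.68 over the Hox genes and 0.967 over all genes, and it passed 2 for 10.3% of all genes. It was 6.22 for Hoxd11, 5.38 for Hoxb8, 4.26 for Hoxa11 and 4.14 for Hoxb6. No test was made of this difference, and the genes described next were chosen after their values were seen.

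On the epiWAT arrays Hox genes were high in sets. Hoxb6, Hoxb7, Hoxb8 and Hoxd8 were high on WT 2, Gipr-/- 1 and 2 and double-knockout 1 and 3. Hoxb8 read 7.75, 5.11, 6.42, 8.51 and 6.87 on these 5 arrays and between 3.46 and 4.85 on the other 7. Hoxb7 read 10.11, 9.42, 9.22, 10.04 and 9.24 on the 5 and between 6.95 and 8.05 on the others. Hoxd8 read 9.77, 9.25, 8.93, 10.47 and 8.68 on the 5 and between 6.75 and 8.67 on the others. For all 4 genes the 5 arrays lay above the other 7, for Hoxd8 by a small margin (8.68 against 8.67), and all 3 kinds of marrow were among the 5.

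Posterior HoxA and HoxD genes were high on fewer arrays. Hoxd11 read 7.80 and 8.29 on Gipr-/- 1 and 2 and 8.38 on double-knockout 1, and between 2.73 and 3.66 on the other 9 epiWAT arrays. Hoxd10 read 6.55, 7.88 and 6.21 on the same 3 arrays and between 3.33 and 4.91 elsewhere in epiWAT. Hoxa11 read 5.07, 5.39 and 3.91 on them and between 2.75 and 3.48 elsewhere. Hoxa10 read 8.03, 9.62 and 8.61 on them, with 6.71 and 6.86 on Gipr-/- 3 and 4 and between 4.54 and 5.84 on the other 7. In ingWAT, Hoxd11 stayed between 2.66 and 3.81 on all 10 arrays. The 3 arrays thus lay above all other epiWAT arrays for each of the 4 genes, and above all 10 ingWAT arrays for Hoxd10, Hoxd11 and Hoxa11.

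The arrays with high Hoxb6, Hoxb7 and Hoxb8 values were those with the highest means of the gland epithelium markers. The mean of 8 mammary and gland epithelium markers was 7.74, 7.86, 7.34, 8.95 and 7.36 on the 5 arrays, between 4.71 and 6.64 on the other 7 and between 4.31 and 5.88 in ingWAT. Epcam, an adhesion protein of epithelia, read 11.31, 9.89, 8.98, 12.29 and 11.29 on the 5 and between 4.69 and 8.60 on the others. Other markers of the list did not part the 5 arrays from the rest. Krt8 read 10.11 on WT 3 and 8.32 on Gipr-/- 2, and Krt18 read 8.63 and 8.39 on them. Krt7 was highest on Gipr-/- 4, at 10.96, and Cldn4 read 6.39 there and 4.99 on WT 2. Elf5, an ETS factor of gland epithelium, was high on 3 of the 5, the same 3 as Hoxd11, at 7.18, 7.91 and 8.38, and between 2.82 and 3.78 on the other epiWAT arrays. The list's milk protein genes Csn3 (at most 4.98) and Wap (at most 6.23) were low on all 22 arrays. Krt8 and Krt18 of this list are also on the mesothelium list, whose mean was between 7.46 and 8.65 on the 5 arrays and up to 8.35 on the others. Epididymis markers were mixed on the 5. Their mean was 8.34, 6.19, 4.32, 11.11 and 7.16 on the 5 and between 4.67 and 7.46 on the others. Adam7, a surface protein of epididymal epithelium, read 17.54, 15.05, 5.11, 18.09 and 16.62 and between 5.41 and 11.85 on the others. Spint3 read 9.71, 7.53, 3.28, 9.53 and 9.58 and up to 5.84 on the others. Lcn5 read 16.46, 5.73, 6.03, 19.31 and 6.81 and up to 15.12 on the others. Gpx5 read 4.30, 3.77, 4.04, 18.94 and 6.17 and up to 11.50 on the others.

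**Figure D3:**
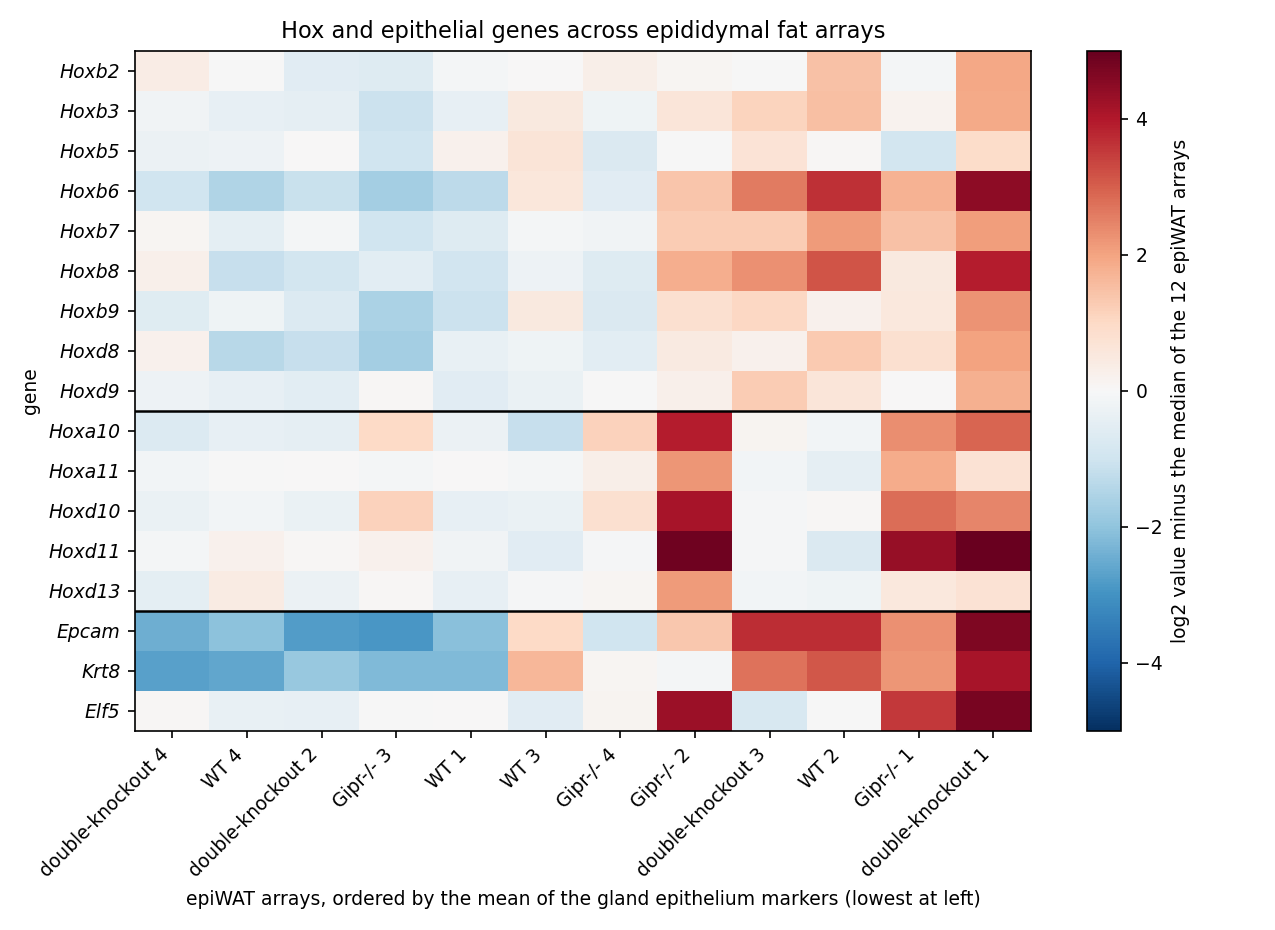
Log2 value minus the gene's median over the 12 epiWAT arrays (colour) for 14 Hox genes and 3 epithelial genes, with arrays ordered from left to right by the mean of the gland epithelium markers. Hoxb6, Hoxb7, Hoxb8 and Hoxd8 are high on the 5 arrays at the right, and Hoxd11, Hoxd10 and Elf5 on 3 of them, Gipr-/- 1 and 2 and double-knockout 1.

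Without these 5 epiWAT arrays the depot comparison changed for HoxB and HoxA. This alternative was chosen after the data were seen and left 17 arrays and 19 Hox genes above the filter. The 5 arrays held the highest epiWAT values of Hoxb6, Hoxb7, Hoxb8 and Hoxa10. Leaving them out therefore had to raise the differences of these genes. Neither the lost call of Hoxb6 nor the new call of Hoxa10 is read as a result. Hoxb6 was at -0.79 (limma adjusted p = 0.128), Hoxb7 at -0.04 and Hoxb3 at 0.03, where the values with all arrays were -2.36, -0.86 and -0.58. Hoxb8 fell below the filter. Hoxa10 was called, at 2.03 (SE 0.41, limma adjusted p = 0.00637), and Hoxc10 stayed at 2.28 (limma adjusted p = 0.00157). Limma then called 3 Hox genes, Hoxa10, Hoxc10 and Hoxc4.

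**Figure D4:**
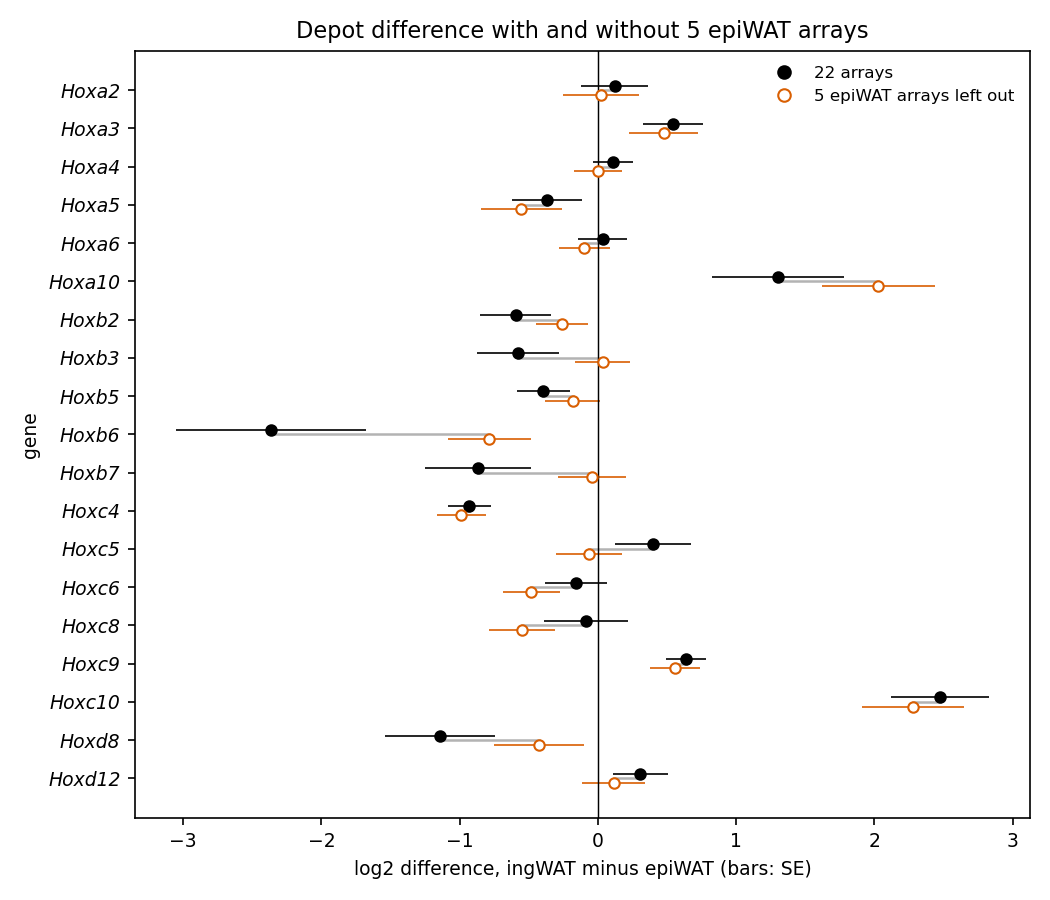
Depot difference (log2, ingWAT minus epiWAT; bars are SE) of the 19 Hox genes tested in both fits. Filled points are from all 22 arrays, open points from the fit without the 5 epiWAT arrays with a gland epithelium marker mean above 7. Hoxb6 moves from -2.36 to -0.79 and Hoxa10 from 1.30 to 2.03, while Hoxc4 and Hoxc10 move by less than 0.2. The 5 arrays held the highest epiWAT values of Hoxb6 and Hoxa10, which fixed the direction of their moves.

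Hoxc13, a factor of the hair follicle that drives hair keratin genes, was the 1 Hox gene whose SD in ingWAT was more than 3 times that in epiWAT (ratio 0.280, epiWAT over ingWAT). It read 6.45 on ingWAT WT 2 and 5.22 on ingWAT double-knockout 2, between 3.24 and 3.89 on the other 8 ingWAT arrays and between 2.70 and 3.91 in epiWAT. These 2 arrays had the highest skin and hair follicle marker means, 11.11 and 11.59. Krt71, a keratin of the hair root sheath, read 16.06 and 16.73 on them. The next ingWAT array by these markers, Gipr-/- 3, had a mean of 8.06 and a Hoxc13 value of 3.24. Hoxc13 was below the filter and was not tested, and the part of hair follicle RNA in its values was not tested.

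**Figure D5:**
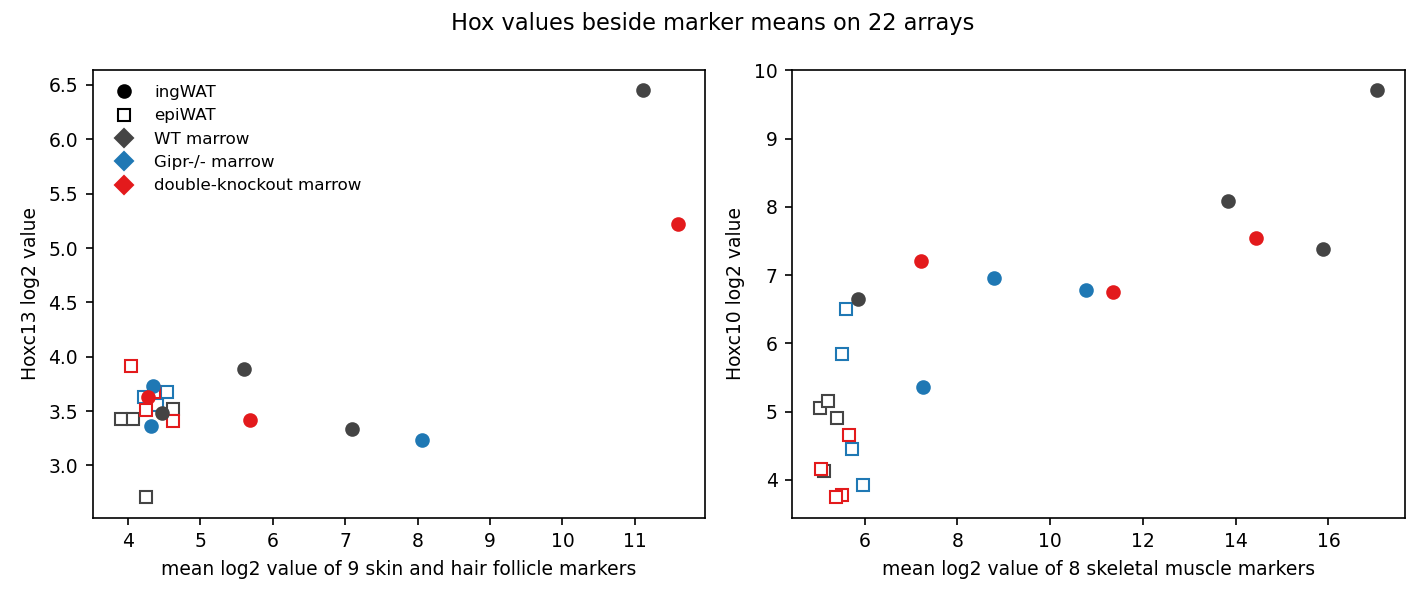
Left, Hoxc13 (log2) against the mean of 9 skin and hair follicle markers; right, Hoxc10 (log2) against the mean of 8 skeletal muscle markers, for 22 arrays (filled circles ingWAT, open squares epiWAT, coloured by marrow). Hoxc13 stands at 6.45 and 5.22 on the 2 arrays with marker means above 11, and Hoxc10 is highest, at 9.71, on the array with the highest muscle mean.

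The 13 Hox genes below the filter were Hoxa11, Hoxa13, Hoxb1, Hoxb9, Hoxb13, Hoxc11, Hoxc12, Hoxc13, Hoxd1, Hoxd9, Hoxd10, Hoxd11 and Hoxd13. They comprise 11 of the 15 posterior and 2 of the 6 anterior members. In a fit with no filter their depot differences ran from -1.31 (Hoxd11) to 0.43 (Hoxc13), and Hoxb9 was the 1 called. On every array 6 of them stayed at or below 4.39 (Hoxa13, Hoxb1, Hoxb13, Hoxc11, Hoxc12 and Hoxd1). The other 7 passed 5 on at least 1 array, with Hoxd11 the highest at 8.38.

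Among partners and regulators of Hox proteins, 2 cofactors were lower in ingWAT. Of the 7 Pbx, Meis and Pknox genes tested, 0 were higher and 2 lower, beside the background of 5.40% higher and 7.55% lower over all genes. Meis1 was at -1.96 (SE 0.35, limma adjusted p = 0.00162) and Meis2 at -1.27 (SE 0.39, limma adjusted p = 0.0372). Meis1 ran from 7.64 to 11.52 in epiWAT and from 6.86 to 8.03 in ingWAT. It read 10.81, 11.52 and 10.57 on the 3 epiWAT arrays with high Hoxd11, above the 9.68 that was the highest of the other 9. Meis2 read 10.49, 11.96 and 11.38 there, and at most 9.35 on the other 9.

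Of 25 Polycomb genes tested, 0 were higher and 1 lower, beside the background of 5.40% higher and 7.55% lower over all genes. The 1 was Rbbp7, a histone-binding subunit (-1.06, SE 0.34, limma adjusted p = 0.0486). Rbbp7 read 15.16, 15.21, 14.74, 15.82 and 15.29 on the 5 epithelium-rich epiWAT arrays, between 12.84 and 14.35 on the other 7 and between 12.65 and 13.63 in ingWAT, and the part of epithelial RNA in its difference was not tested. Of 14 Trithorax and K27 demethylase genes, which act against Polycomb, limma called 0, as it did for the 3 other upstream regulators, beside 12.9% of all genes. Of 14 retinoic acid pathway genes 3 were higher and 2 lower in ingWAT, beside the same background of 5.40% and 7.55%. The synthesis enzymes Aldh1a1 (-1.67, limma adjusted p = 0.00602) and Aldh1a2 (-1.64, limma adjusted p = 0.000189) were lower. Aldh1a1 was highest on 4 of the 5 epithelium-rich arrays, at 16.45, 15.02, 16.15 and 16.18 against at most 14.26 on the other 7 epiWAT arrays, and the part of epithelial RNA was not tested here either. The receptor Rxrg was higher (1.45, limma adjusted p = 0.00297). It was highest, at 11.33, on the ingWAT array with the highest muscle marker mean, and the part of muscle RNA was not tested. The antisense RNAs Hoxa11os and Hoxd3os1 were not called. Hoxa11os lies opposite Hoxa11, and it read 5.93, 5.68 and 5.85 on the 3 epiWAT arrays with high Hoxd11 and at most 4.76 on the other 9.

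Of 29 patterning factors outside the clusters, 5 were higher in ingWAT and 5 lower, beside the background of 12.9% called, with a median difference of -0.16. The other 19 were not called. The list was chosen with earlier results of these data known and includes known depot factors, so nothing is read from this share. Tbx15, a T-box factor of subcutaneous fat, was at 3.90 (SE 0.32, limma adjusted p = 6.58e-07) and ran from 6.73 to 10.54 in ingWAT against 3.37 to 5.04 in epiWAT, with no overlap. Shox2 was at 2.56 (limma adjusted p = 1.08e-05). Wt1, a factor of mesothelium and visceral fat, was at -2.31 (limma adjusted p = 4.86e-08) and Tcf21, a factor of visceral stroma, at -2.76 (limma adjusted p = 8.90e-05). Of the 20 Hox genes tested, 0 had depots that did not overlap, beside 0.386% of all genes.

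The genes that flank the Hox clusters were measured as a local comparison. The 4 nearest named genes with a feature on each side of each cluster were 32, by their order in the RefSeq gene table (GRCm38.p6), and 27 of them were tested. Of these 0 were higher in ingWAT and 2 lower, beside the background of 5.40% higher and 7.55% lower, with a median difference of -0.19. Both lie beyond the anterior end of HoxC: Cbx5, a heterochromatin protein (-1.04, SE 0.20, limma adjusted p = 0.00269), and Copz1, a coatomer subunit (-0.54, SE 0.15, limma adjusted p = 0.0245). Nothing is read from their place. Smug1, a DNA repair enzyme listed between the cluster and Cbx5, was not called (0.19, limma adjusted p = 0.411), and Nfe2, between Cbx5 and Copz1, was below the filter.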

How the data were processed

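The authors deposited 1 table of values per array feature, read here as log2 expression. The sources used here state neither its log base nor its normalization nor any batch correction. The submitters' processing notes name Partek 6.6, with no role. Symbols came from GEO's platform annotation: 19341 of 21793 features carried 1 symbol and 2452 none. For 4 genes with 2 features the one with the higher mean was kept. Each fit left out the 25% of genes with the lowest mean. Tests used limma 3.58.1 (lmFit, eBayes with trend) in R 4.3.3, two-sided, on the 22 arrays for the depots and on the arrays of 1 depot for kinds of marrow, with Benjamini-Hochberg adjustment over all genes tested and a threshold of 0.05. The fits were checked on simulated data. The number of arrays limits the precision. Of the deposited sample columns, 0 were left unused.

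Called Hox genes with an absolute depot difference of at least 1 were described by array, up to 6 others by name, and in a marrow comparison the 2 with the smallest p where none was called. Related gene lists named called genes past the same size. Other genes were chosen after their values were seen. The members, lists and markers were chosen with earlier results of these data known. Alternatives were another filter, no trend, array weights, quantile normalization, median centring, fewer arrays and marker covariates.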

Additional observations from a re-analysis of the deposited data

Results flagged for a closer look

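In 5 of 85 pairs of a gene and a group of 4 arrays, 1 array stood apart, with a gap to its neighbour above 0.829 of the group's range. Chance gives such a gap in about 1 of 20 groups. Hoxd11 read 8.38 on epiWAT double-knockout 1 and 3.33, 3.38 and 3.47 on the other arrays of that group. Hoxd10 read 6.21 on the same array and 3.42, 3.43 and 3.71 on the others. Hoxb2 read 8.62 on epiWAT WT 2 and 7.07, 7.14 and 7.17 on the others. In ingWAT, Hoxb7 read 8.95 on WT 1 and 7.28, 7.33 and 7.49 on the others, and Hoxa10 read 6.49 on WT 4, its lowest, and 8.55, 8.56 and 8.79 on the others. WT 4 was also the ingWAT array with the lowest muscle marker mean, 5.85, and the 1 ingWAT WT array numbered above 80. The parts of muscle RNA and of sample number in this value were not tested and cannot be told apart here.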

How the results depend on the processing

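Of 365 counts of called Hox genes recomputed under alternatives, 338 stayed within 1.5 times the reported one. Most comparisons had a reported count of 0, and a 0 that stayed 0 is among the 338, so the total says little about the calls. The 4 calls of the averaged depot difference became 0 with the 50% filter, which left 10 Hox genes to test, 1 without the muscle-rich ingWAT arrays and 0 with the marker covariates, and 3 to 6 with 1 array left out. With WT marrow the count of 1 became 0 with the 50% filter and without the muscle-rich arrays, 2 with no trend, with quantile normalization, with only the 2 groups compared, without ingWAT arrays numbered above 80 and without the epithelium-rich arrays, and 3 with array weights (1 to 2 with 1 array left out). With double-knockout marrow the count of 2 became 1 with median centring, with only the 2 groups and without the epithelium-rich arrays, and 0 with the 50% filter, without the muscle-rich arrays and without the lymphocyte-rich arrays (1 to 2 with 1 array left out). For double-knockout against Gipr-/- marrow in ingWAT, array weights and leaving out the muscle-rich arrays each gave 1 call, Hoxc6. Apart from the 50% filter, the cause was not tested.

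Signs turned for genes that were not called, and for Hoxb6. With the marker covariates the values were -0.043 for Hoxa2, -0.082 for Hoxa4, -0.051 for Hoxa6, 0.081 for Hoxb2, 0.58 for Hoxb3, 0.21 for Hoxb5, 0.18 for Hoxb6, 0.27 for Hoxb7, 0.17 for Hoxb8 and -0.37 for Hoxc5. Without the epithelium-rich arrays Hoxa6 was at -0.10, Hoxb3 at 0.034 and Hoxc5 at -0.062. Without the lymphocyte-rich arrays Hoxa2 was at -0.20 and Hoxc8 at 0.18. Without the muscle-rich arrays Hoxa4 was at -0.072, and without ingWAT arrays numbered above 80 Hoxc6 was at 0.12. Hoxa6 was at -0.057 with array weights and -0.051 with quantile normalization. Hoxc8 was at 0.0088 with quantile normalization and 0.014 with median centring. With 1 array left out Hoxa6 ran from -0.070 to 0.085 and Hoxc8 from -0.24 to 0.030. Leaving out the muscle-, lymphocyte- or epithelium-rich arrays and the covariates were chosen after the data were seen. Muscle marker means barely overlapped between depots, so the fit with the marker covariates can hardly separate depot from covariates. Leaving out the muscle-rich arrays left 1 ingWAT array with WT and 1 with double-knockout marrow, leaving out the lymphocyte-rich arrays 1 with double-knockout marrow, and leaving out those numbered above 80 1 with Gipr-/- marrow, each assumed to vary like the other groups. Hoxc10 was called in 33 of 34 alternatives, Hoxc4 in 32 and Hoxc9 in 30. No paired analysis was possible because the labels carry no replicate numbers, and accession order pairs nothing.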

Other observations

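Tissue markers also set single arrays apart. The mean of 8 testis germ cell markers was 13.79 on epiWAT Gipr-/- 1, the highest of the 12 epiWAT arrays, against a median of 6.00 over epiWAT and at most 4.77 in ingWAT. Gpx5, a secreted peroxidase of the epididymis, read 18.94 on epiWAT double-knockout 1, the array with the lowest adipocyte marker mean, 16.06. All 5 macrophage markers measured were lower in ingWAT than in epiWAT by limma, beside 7.55% of all genes, with a median difference of -1.09.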
